A study of Mus musculus with 4 samples.

Results

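The interfollicular epidermis (IFE) is the stratified epithelium between the hair follicle (HF) openings. Its cells divide in a basal layer, withdraw from the cell cycle as they move up through the spinous and granular layers, and end as cornified cells, whose cross-linked protein envelope and extruded lipids form the barrier of the skin. Langerhans cells, the antigen-presenting cells of the epidermis, and in mice dendritic epidermal T cells live between the keratinocytes, and fibroblasts of the papillary dermis lie directly beneath them. The spots over this epithelium were taken from a Visium experiment, in which RNA from a tissue section is captured on barcoded spots so that each count keeps its position. Each spot covers a small area of tissue, so more than 1 cell type can contribute to it.

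The skin was dorsal skin of *R26-tdTomato; Krox20-CreERT* mice at postnatal day (P) 38. The *CreERT* stood in the *Krox20* (*Egr2*) locus, so that recombination was limited to cells that had used that locus when 4-hydroxytamoxifen was given at P2. All samples shared this genotype and treatment, and there was no untreated or wild-type group. Each of the 4 slices carried 1 section from each of the same 3 mice, so the slices are technical replicates, and all SDs and p-values here measure the spread between slices and not between mice. The paper states that the 4th section was left out because its structure was distorted. The sources used here do not say to which spots it corresponds, or whether the 4th slice is meant. The spots of all 4 slices were used.

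Of 6420 spots, 6411 had at least 250 detected genes and were kept. Each kept spot was scored by its average log-scaled level of *Lor*, *Krt1*, *Krt10*, *Krtdap*, *Krt77* and *Flg2*, the major keratins and envelope proteins of the suprabasal layers, and the highest 10% of each slice were taken as IFE spots. This gave 642 IFE spots, with 165, 175, 156 and 146 in slices 1 to 4, and 5769 other spots. The spots were thus selected on measured values of these 6 genes. *Krt10* reached 4252, 3948, 3428 and 4509.8 CPM (the unique molecular identifiers, UMIs, of a gene scaled to 1000000 UMIs of the same spots) in IFE spots against 115, 81.4, 83.1 and 141 CPM in the other spots, and *Lor* 5780.3 against 128 CPM on average, which the choice of spots fixed. The score ran without a gap at the limit, with 2.6, 2.25, 2.14 and 2.35 in the lowest IFE spot and 2.56, 2.24, 2.14 and 2.34 in the highest other spot of slices 1 to 4, and the median was 3.44, 3.39, 3.08 and 3.37 over IFE spots. UMIs were counted at the 3′ ends of transcripts, so levels were not divided by gene length. Barcodes stand for fixed grid positions, and 87 positions held an IFE spot in more than 1 slice.

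IFE spots were shallower than the rest of the skin. They held 1883665, 1306226, 1278729 and 1388320 UMIs in slices 1 to 4, of slice totals of 26910422, 24128004, 21384253 and 19393026, and the median IFE spot had 10874, 7253, 7586 and 9254 UMIs against 15290, 12992, 12469 and 12278 in the other spots. The log2 ratio of the medians was -0.61 ± 0.20 (SD, n = 4 slices), negative in all 4. Median genes per spot were 3535, 2684, 2803 and 3274 against 4039, 3655, 3746 and 3724, a log2 ratio of -0.31 that turned to 0.050 once all spots were thinned to 5500 UMIs and chosen again. Fewer cells in a spot and less RNA per cell cannot be told apart.

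The position of a spot did not enter the score, and IFE spots formed narrow bands along the skin surface. The share of IFE spots that touched a grid position without tissue was 37.6, 49.7, 66.03 and 67.8%, against 17.99, 17.2, 18.4 and 18.2% of the other spots. Among the neighbours of an IFE spot, 56.2, 58.3, 49.9 and 54.8% were themselves IFE spots, against 4.33, 3.86, 4.63 and 4.07% among the neighbours of other spots. Both shares were higher in 4 of 4 slices (exact sign-flip test, two-sided p = 0.13, the smallest that 4 slices allow). The mean difference in the edge share was 37.3 percentage points and 21.7 when the top 20% of spots were taken, and that in the neighbour share was 50.6 points and 33.5 with the top 5%. The files do not label the sections. On the maps the tissue lay in pieces side by side, and the bands, split at the widest stretch across the slice without IFE spots, fell in a pair of places. An outer band of 54, 39, 43 and 34 IFE spots followed the free surface of the tissue at one side, where 90.7, 100, 81.4 and 97.1% were at the tissue edge. The other 111, 136, 113 and 112 IFE spots lay in a central band where a pair of tissue surfaces appeared to face each other, and 11.7, 35.3, 60.2 and 58.9% of them were at an edge. A spot there may hold tissue of both sides.

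**Figure D1:**
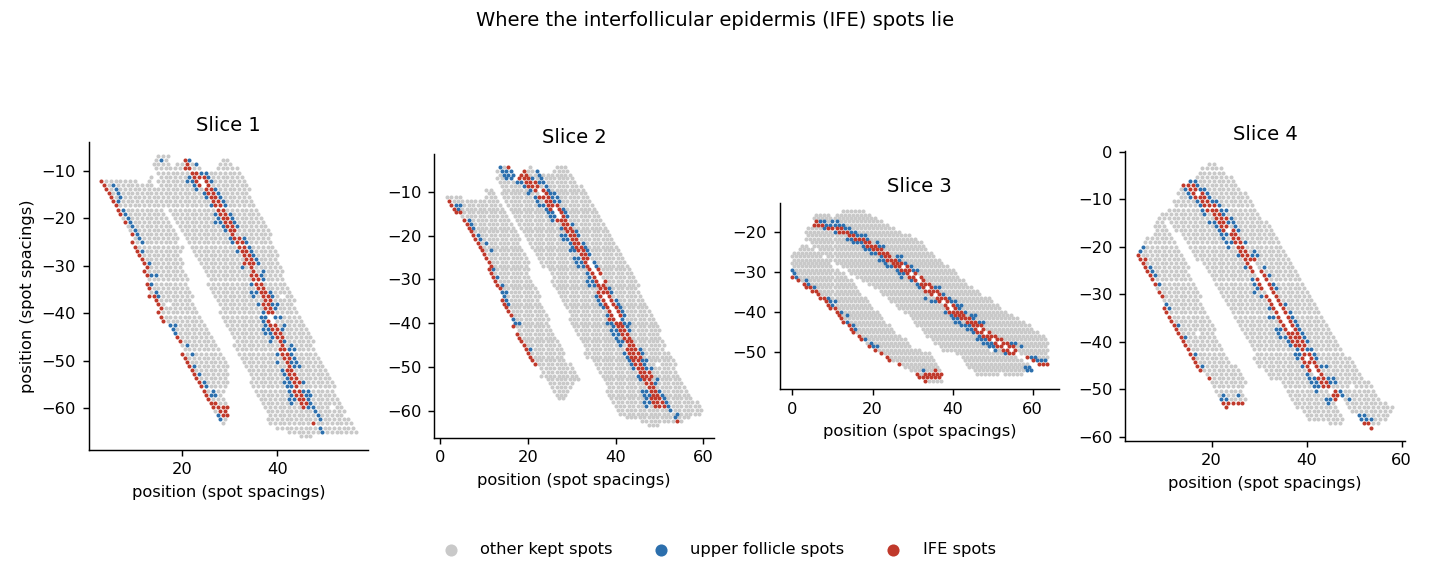
Kept spots of slices 1 to 4 on the capture grid (axes in spot spacings), with IFE spots in red, upper follicle spots in blue and all other kept spots in grey. The 642 IFE spots form an outer band along one side of the tissue and a central band, and upper follicle spots line the side of the bands that faces the tissue.

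The first comparison asked how the IFE spots differed from all other kept spots over the whole transcriptome. Most genes on the late differentiation, barrier lipid and resident immune cell lists were higher, with *Lce1* genes the highest among named genes. The dendritic epidermal T cell list was the highest by its median over fitted genes, which the filter on low counts may favour. All fitted skeletal muscle and proliferation genes and most adipocyte, melanocyte, hair shaft and inner root sheath genes were lower. Of 13727 genes tested, 3657 (26.6%) were higher and 3459 (25.2%) were lower at an adjusted p under 0.05 (edgeR, slices as blocks). A log2 fold change of at least 1 was reached by 1455 genes upward (10.6%) and 945 genes downward (6.88%), and the median over all genes was -0.029. With all spots thinned to the same depth, 2583 genes were higher and 2250 lower. The score genes were left out of these counts. The choice of spots favoured any gene made in the same layers as the score genes. The p-value of such a gene says only that the slices gave alike values.

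*Lce1m*, a late cornified envelope gene, was measured at 1399.9, 1593, 1108 and 1453 CPM in the IFE spots of slices 1 to 4 and at 28.2, 20.9, 20.7 and 32.7 CPM in the other spots (log2 fold change 5.82 ± 0.093 (SE), adjusted p = 5.1e-30). Its ranges were far apart, with slice 3 the lowest of the IFE values. *Ly6m*, of the Ly6 family of surface proteins, had 60.5, 80.4, 66.5 and 46.1 CPM against 1.2, 0.745, 1.19 and 1.17 CPM (log2 fold change 5.92 ± 0.18 (SE), adjusted p = 6.9e-23). Among the 12 genes with the highest fold change by the naming rule, 9 were of the *Lce1* family, from 5.61 for *Lce1d* to 5.92 for *Lce1i*. The others were *Ly6m*, *2310050C09Rik* (5.68 ± 0.086), which lies next to *Lce1l* on chromosome 3, and *Skint10* (5.67 ± 0.16), of a family linked to the selection of epidermal T cells. *Lce1* and *Skint* genes each form a family of related genes. Reads shared between members may have been counted for one member or dropped, so that single members are less certain than the family.

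Of the 42 genes on the cornified envelope list, 32 were fitted, of which 23 were higher, 6 lower and 3 not called (median 1.56). The list split by family, as the fold changes along the epidermal differentiation cluster on chromosome 3 show. All 14 *Lce1* genes were higher, with fitted changes of 3.93 to 6.18, and so were *Flg* (filaggrin, 5.51 ± 0.10), *Hrnr* (hornerin, 5.36 ± 0.096) and *Lce6a* (3.3 ± 0.16). None of the 3 fitted *Lce3* genes was higher, and *Lce3c* (-0.53 ± 0.12) and *Lce3d* (-0.81 ± 0.32) were lower. *Crnn* (cornulin) had 315, 205, 259 and 202 CPM in IFE spots and 711, 555, 527 and 529.7 CPM elsewhere (log2 fold change -1.2 ± 0.071 (SE), adjusted p = 2.7e-15). *Sprr2h* (-1.04 ± 0.11), *Sprr1b* (-0.84 ± 0.089) and the transglutaminase gene *Tgm3* (-1.01 ± 0.094) were lower as well. *Ivl*, which codes for involucrin, was not called, at 222, 211, 235 and 194 CPM against 227, 226, 228 and 187 CPM (log2 fold change 0.039 ± 0.065 (SE), adjusted p = 0.64), and *Sprr1a*, the most abundant member, at 1591 against 1606 CPM (log2 fold change 0.042 ± 0.063, adjusted p = 0.6, with the opposite sign after scaling by library size alone). *Tgm3* is also an enzyme of the HF. Envelope genes at 0 UMIs in IFE spots were *Sprr2a2*, *Sprr2b*, *Sprr2d*, *Sprr2e*, *Sprr3*, *Lce3e* and *Lce3f*.

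**Figure D2:**
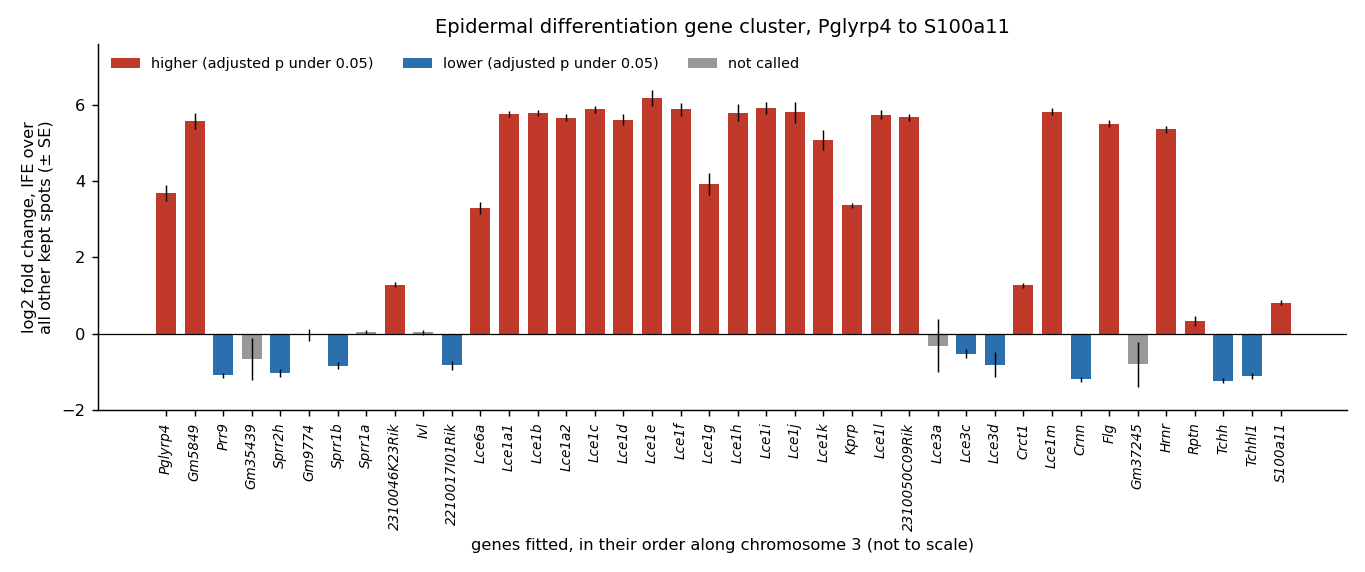
Log2 fold change (± SE, edgeR) in IFE spots over all other kept spots for the genes fitted from *Pglyrp4* to *S100a11* in chromosome order, with called genes in red (higher) or blue (lower) and the others in grey. The *Lce1* genes stand between 3.93 and 6.18, while *Ivl* stands at 0.039 and *Crnn* at -1.2.

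Because neighbours in this cluster differed so much, their promoters were set side by side. The 150 bases before the RefSeq start site (GRCm38.p6) are given 5′ to 3′ for *Lce1m* and *Lce1d*, the *Lce1* genes whose window held TATAAA, and for 3 envelope genes that were not higher in IFE spots. *Lce1m* is at chr3:93019062-93019211, minus strand, *Lce1d* at chr3:92687211-92687360, minus strand, *Ivl* at chr3:92573736-92573885, minus strand, *Sprr1b* at chr3:92438780-92438929, minus strand and *Crnn* at chr3:93144639-93144788, plus strand. Capitals mark TGANTCA, the core that AP-1 factors (Fos and Jun proteins) recognize and which reads the same on both strands, and TATAAA on the strand of the gene.
Lce1m: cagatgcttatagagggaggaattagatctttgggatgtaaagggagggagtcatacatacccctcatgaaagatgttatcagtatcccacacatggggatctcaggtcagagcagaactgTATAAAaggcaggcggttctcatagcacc
Lce1d: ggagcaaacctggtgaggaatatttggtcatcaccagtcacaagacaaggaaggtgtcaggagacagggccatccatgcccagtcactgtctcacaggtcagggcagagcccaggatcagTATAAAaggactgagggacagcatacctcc
Ivl: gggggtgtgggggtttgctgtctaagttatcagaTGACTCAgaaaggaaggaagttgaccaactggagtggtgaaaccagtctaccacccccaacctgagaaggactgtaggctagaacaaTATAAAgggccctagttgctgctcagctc
Sprr1b: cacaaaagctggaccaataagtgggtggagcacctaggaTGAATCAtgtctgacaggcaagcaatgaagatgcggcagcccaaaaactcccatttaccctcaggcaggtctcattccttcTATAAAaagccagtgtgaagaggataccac
Crnn: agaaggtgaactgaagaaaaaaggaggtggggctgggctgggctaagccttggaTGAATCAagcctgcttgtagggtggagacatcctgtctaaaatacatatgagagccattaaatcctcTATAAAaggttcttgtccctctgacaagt
In the 300-base windows from 250 before to 50 after the start, TGANTCA was present in 0 of 13 *Lce1* promoters listed, 0 of 6 *Lce3* promoters, 9 of 14 *Sprr* promoters and both the *Ivl* and *Crnn* promoters, against 7.81% of all 32851 promoters. It was also in the promoters of *Flg*, *Rptn* and *S100a11*, all higher in IFE spots, of the score genes *Lor* and *Flg2*, and of *Prr9* and *Tchhl1*, both lower, so that it stood before genes of either direction. It began 116 bases before the start in *Ivl*, 111 in *Sprr1b* and 96 in *Crnn*. TATAAA was found in 2 of 13 *Lce1* and 10 of 14 *Sprr* promoters, against 8.32% of all. AACCNGTT, the core of grainyhead-like factors (2.09% of all promoters, both strands), was in none of the *Lce1*, *Lce3* or *Sprr* windows, and TTGCNNAA, the core of C/EBP factors (10.8%, both strands), in 0 of 13 *Lce1*, 1 of 6 *Lce3* and 1 of 14 *Sprr* windows. The motifs do not overlap in the sequences shown. These are matches of letters and not sites of binding.

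Genes of the spinous and granular layers were higher almost throughout. Of 21 fitted, 18 were higher, 1 was lower and 2 were not called (median 2.0). *Calm4*, a calmodulin-like protein of differentiating keratinocytes, had 1811, 1855, 1513 and 1630.0 CPM against 63.9, 49.03, 47.5 and 60.7 CPM (log2 fold change 5.0 ± 0.078 (SE), adjusted p = 3.5e-30). *Ptgs1* (4.83 ± 0.081), which makes prostaglandins, *Krt78* (4.68 ± 0.095), *Dmkn* (2.82 ± 0.062) and *Sbsn* (2.77 ± 0.065) were higher as well. The lower member was *Mt4*, a metallothionein of stratified epithelia (-0.96 ± 0.071). *Lgals7*, the most abundant member, rose less, with 5368 against 3436 CPM (0.69 ± 0.055). *Krt2*, a keratin of the upper epidermis at some body sites, was almost absent, with 9 UMIs over all IFE spots, and was not fitted.

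Barrier lipid genes were higher for 24 of 26 fitted and lower for none (median 1.12). *Alox12b* codes for the lipoxygenase that oxidizes the linoleate of acylceramides and had 48.8, 44.4, 32.8 and 46.1 CPM in IFE spots against 0.999, 0.876, 0.696 and 1.33 CPM (log2 fold change 5.51 ± 0.18 (SE), adjusted p = 1.1e-21). Its partner *Aloxe3* (3.31 ± 0.17), the ceramide genes *Degs2* (3.16 ± 0.42) and *Sptlc3* (3.11 ± 0.15) and the fatty acid elongase *Elovl1* (2.79 ± 0.066) were also higher. *Elovl4*, which makes very long acyl chains, was the most abundant at 773 ± 74.8 CPM (SD, n = 4 slices) against 224 ± 12.7 CPM (1.84 ± 0.069). *Pnpla1* (-0.12 ± 0.12) and *Sptlc2* (-0.055 ± 0.11) were not called.

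A list was drawn up for proteases that shed cornified cells and their inhibitors. Of 24 fitted members, 20 were higher, 3 lower and 1 not called (median 1.0). The kallikrein *Klk8* had 199, 228, 189 and 194 CPM against 8.27, 8.46, 7.81 and 10.2 CPM (log2 fold change 4.6 ± 0.082 (SE), adjusted p = 7.6e-29). *Serpinb12* (5.12 ± 0.33), *Wfdc21* (4.57 ± 0.073) and *Casp14* (3.95 ± 0.090), the caspase of cornifying cells, were also far higher, whereas *Klk7* (1.17 ± 0.063) and *Klk6* (0.76 ± 0.084) had smaller fold changes. The serine protease gene *Corin* (-1.86 ± 0.37), for which a part in shedding was not tested, was lower. So were *Spint1* (-0.56 ± 0.072) and *St14* (-0.29 ± 0.078), an inhibitor and its protease.

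The basal layer list was higher for 13 of 19 fitted, lower for 2 and not called for 4 (median 1.01), and its members differed widely. *Krt15*, a keratin of basal and bulge cells, had 1972, 2060.1, 1860.4 and 2142 CPM against 452, 419, 418 and 548 CPM (log2 fold change 2.19 ± 0.062 (SE), adjusted p = 1.7e-23). *Krt14*, the main basal keratin, was closer, with 2857, 2846, 3309 and 2822 CPM against 2170.4, 2349, 2331 and 2416 CPM (log2 fold change 0.40 ± 0.059 (SE), adjusted p = 1.1e-06). The groups did not overlap for either gene, but the *Krt14* call was lost when spots were thinned to equal depth, and its sign turned in 1 of 3 strips of the slice. *Lamb3*, a chain of the laminin that anchors the basal layer, was the highest by fold (2.35 ± 0.096), and *Col17a1* (1.52 ± 0.069), *Itga6* (1.2 ± 0.082) and *Itgb4* (1.05 ± 0.080), parts of hemidesmosomes, were higher. *Ly6a*, which codes for SCA1 (1.15 ± 0.066), and *Thy1* (1.75 ± 0.074) were higher as well. *Trp63*, *Itgb1*, *Itga3* and *Ccnd2* were not called, and *Postn* (-0.54 ± 0.070) and *Mt2* (-0.59 ± 0.069) were lower.

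**Figure D3:**
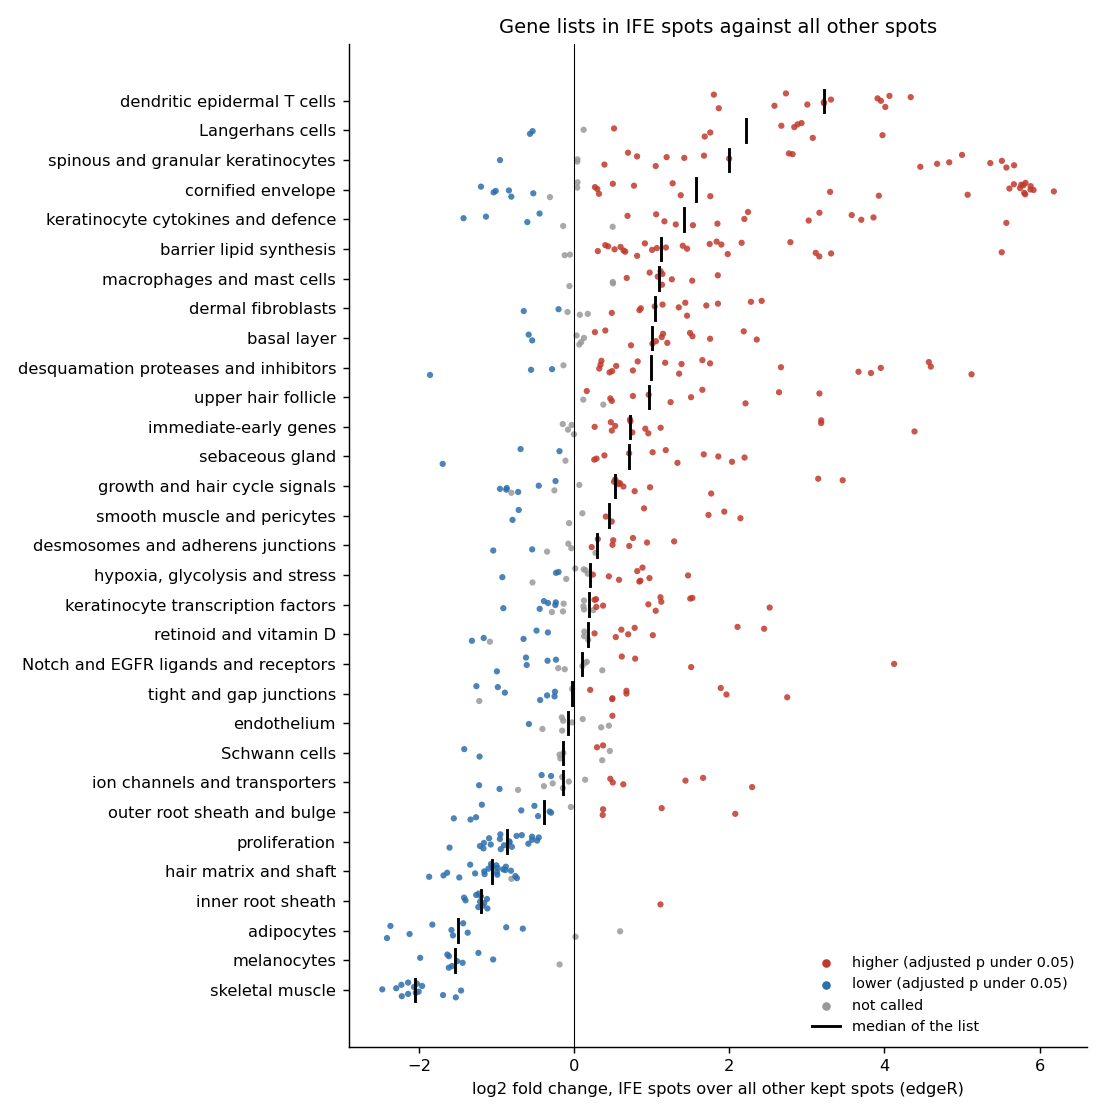
Log2 fold change in IFE spots over all other kept spots (edgeR) for each fitted gene of 31 lists, red where higher, blue where lower and grey where not called, with the median of each list as a black bar. Lists run from dendritic epidermal T cells (median 3.22) at the top to skeletal muscle (-2.05) at the bottom.

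Among genes of cell contact, desmosomes and adherens junctions were higher for 8 of 14 fitted and lower for 2 (median 0.29), with *Dsg1a* the highest (1.29 ± 0.061) and *Dsc2* the lowest (-1.04 ± 0.11). Tight and gap junction genes went both ways, with 8 of 17 higher and 7 lower (median -0.028). The tight junction genes *Cldn23* (2.75 ± 0.14) and *Cgn* (1.96 ± 0.094) and the connexin *Gjb5* (1.89 ± 0.067) were higher. The connexin genes *Gjb2* (-1.26 ± 0.067), *Gja1* (-0.99 ± 0.065) and *Gjb6* (-0.89 ± 0.078) were lower, with *Gjb2* at 345, 292, 447 and 377 CPM against 806, 811, 969 and 1029 CPM.

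Signals made by keratinocytes were among the most uneven lists. Of 20 fitted cytokine and defence genes, 14 were higher and 4 were lower (median 1.42). *Il1f8* (5.57 ± 0.33), *Il18* (3.58 ± 0.093) and *Il33* (3.02 ± 0.20) belong to the interleukin 1 family, as does *Il1f9*, with 64.8, 68.9, 63.3 and 66.3 CPM against 1.24, 1.05, 1.59 and 2.44 CPM (log2 fold change 5.46 ± 0.17 (SE), adjusted p = 8.6e-23). *Il34*, a ligand of the CSF1 receptor on which Langerhans cells depend, was at 57.3 against 4.08 CPM (3.86 ± 0.13). *Ccl27a*, a chemokine that draws T cells to skin, was the most abundant at 708 CPM (2.24 ± 0.064). The lower members were *S100a8* (-1.43 ± 0.090), *S100a7a* (-1.14 ± 0.087), *S100a9* (-0.60 ± 0.14) and *Cxcl14* (-0.45 ± 0.068).

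Of the Notch and EGF receptor list, 4 of 15 were higher, 5 lower and 6 not called (median 0.11), near the shares of 26.6% and 25.2% over all genes. The EGF receptor ligand *Btc* was the highest, with 44.1, 53.6, 49.3 and 56.2 CPM against 3.2, 2.8, 2.29 and 3.61 CPM (log2 fold change 4.12 ± 0.15 (SE), adjusted p = 1.8e-20), while *Areg* (-1.0 ± 0.26), another ligand, and *Notch1* (-0.62 ± 0.073) were lower. Of 20 fitted growth and hair cycle signals, 11 were higher and 6 lower (median 0.52). *Wnt7b* had 87.1, 71.2, 79.8 and 74.2 CPM against 6.27, 6.97, 7.91 and 8.67 CPM (log2 fold change 3.46 ± 0.11 (SE), adjusted p = 5.3e-22), and *Nrtn*, a neurotrophic ligand of the GDNF family, 129 against 15.2 CPM (3.15 ± 0.086). *Edn1* (-0.96 ± 0.16), *Pthlh* (-0.88 ± 0.18) and *Bmp2* (-0.87 ± 0.16) were lower.

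Immediate-early genes, which cells induce within minutes of a stimulus, were higher for 13 of 17 and lower for none (median 0.72). The highest of them was *Fosb*, with 35.6, 31.4, 25.8 and 30.3 CPM against 1.8, 1.23, 1.24 and 1.78 CPM (log2 fold change 4.39 ± 0.19 (SE), adjusted p = 1.1e-18). *Fos* had 149 against 17.1 CPM (3.18 ± 0.091) and the phosphatase gene *Dusp1* 196 against 22.3 CPM (3.18 ± 0.076), whereas *Egr1* (0.72 ± 0.063) and *Junb* (0.47 ± 0.066) were higher by less. These genes also respond to the handling of tissue, and the part of handling in the result was not tested.

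Over all genes, 26.6% were higher and 25.2% lower. Transcription factors of keratinocytes were higher for 11 of 24, lower for 6, near the share over all genes, and not called for 7 (median 0.19). *Pou2f3* led at 58.8 against 10.6 CPM (2.52 ± 0.11), followed by *Klf5* (1.52 ± 0.064) and *Klf4* (1.5 ± 0.065). In the retinoid and vitamin D list, 8 of 17 were higher and 5 lower, the latter near the share over all genes. *Cyp26b1*, which degrades retinoic acid, was higher (2.45 ± 0.093), and *Aldh1a3*, which makes it, was lower (-1.32 ± 0.15). Of 17 ion channel and transporter genes, 6 were higher, up to 2.29 for the glucose transporter *Slc5a1*, 4 lower, down to -1.23 for the heat-gated channel *Trpv3*, and 7 were not called, again near the shares over all genes. Hypoxia, glycolysis and stress genes were higher for 9 of 18 and lower for 3, with *Slc2a1*, a glucose transporter, the highest (1.47 ± 0.11).

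Both resident immune lists were higher in IFE spots. All 13 fitted dendritic epidermal T cell genes were higher (median 3.22), among them *Cd3e* (4.34 ± 0.26) and *Cd3g* (4.06 ± 0.25) of the T cell receptor complex. *Trdv4* and *Klrk1* were not fitted. Genes rare elsewhere may pass the filter on low counts through IFE spots alone. The count and median over fitted genes may thus favour higher values. The summed level of the list was 164, 198, 162 and 211 CPM in IFE spots against 25.8, 27.4, 23.2 and 27.99 CPM, with *Gzmc*, a granzyme, the most abundant, and *Trdv4* at 0. Langerhans cell genes were higher for 9 of 12 and lower for 2 (median 2.21), with sums of 2447, 2749.9, 2348 and 2518 against 863, 825, 793 and 873 CPM, and *Cd74*, the invariant chain of class II antigen presentation, the most abundant. *Cd207*, which codes for langerin, had 17.5, 17.6, 14.9 and 25.9 CPM against 1.76, 1.01, 0.895 and 1.11 CPM (log2 fold change 3.97 ± 0.25 (SE), adjusted p = 8.6e-15). At least 1 *Cd207* UMI was found in 15.8, 11.4, 10.3 and 17.1% of IFE spots and in 2.49, 1.33, 1.22 and 1.37% of the deeper other spots. After all spots were thinned to 5500 UMIs and chosen again, the shares were 9.43, 6.41, 4.35 and 15.8% and 1.19, 0.712, 0.323 and 0.503%. Macrophage and mast cell genes were higher for 9 of 12 (median 1.1), with sums of 405, 387, 303 and 372 against 196, 179, 169 and 174 CPM.

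Lists of other skin structures did not all go one way. Dermal fibroblast genes were higher for 12 of 17 fitted and lower for 2 (median 1.04), and summed to 36384, 35633, 31407 and 33163 CPM in IFE spots against 9868, 8399, 8017 and 8613 CPM. *Col1a1*, a chain of type I collagen and the most abundant of them, had 13868, 11354, 11009 and 12144 CPM against 3029, 1951, 2055 and 2450.0 CPM (log2 fold change 2.42 ± 0.063 (SE), adjusted p = 2.3e-24), and *Dkk1* was at 0. Upper HF genes were higher for 11 of 13 (median 0.96), with *Cst6*, a cystatin, the most abundant at 9916 CPM. Sebaceous gland genes were higher for 11 of 15 and lower for 3 (median 0.71), yet their sums, led by *Fabp5*, were 3227, 3705, 3758 and 3431 against 3705, 3429.6, 3233 and 3305 CPM. Smooth muscle and pericyte genes were higher for 6 of 10 and lower for 2, from *Rgs5*, a pericyte gene (-0.80 ± 0.13), to *Cnn1* (2.14 ± 0.18), whose IFE level was highest in slice 2. Of 10 endothelial genes 8 were not called, with 1 higher and 1 lower, and of 9 Schwann cell genes 5 were not called, with 2 higher and 2 lower. The part of these tissues in the differences given here was not tested.

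All 20 proliferation genes were lower (median -0.87), from -0.46 for *Mki67* to -1.61 for *Cdk1*, with sums of 1227, 1274, 1184 and 1285 against 2217, 2339, 2316 and 2186 CPM. IFE spots with at least 1 *Mki67* UMI made up 43.03, 34.9, 41.03 and 41.1%, against 53.3, 52.1, 52.97 and 52.3% of other spots. With spots thinned to 5500 UMIs and chosen again, these shares were 28.3, 28.2, 36.96 and 35.3% against 28.1, 33.5, 34.8 and 32.7%. Hair matrix and shaft genes were lower for 22 of 23 (median -1.05) and inner root sheath genes for 11 of 12 (median -1.21), the exception being *Gata3*, a factor also of the epidermis (1.11 ± 0.062). Inner root sheath genes still summed to 19785, 13786, 16125 and 14625 CPM in IFE spots, with *Tchh* the most abundant. Outer root sheath and bulge genes were lower for 9 of 14 and higher for 4 (median -0.39). Melanocyte genes were lower for 9 of 10 (median -1.54), adipocyte genes for 10 of 12 (median -1.5) and skeletal muscle genes for 14 of 14 (median -2.05). The 8 lowest genes by the naming rule were muscle genes and *Car3*, a carbonic anhydrase of fat and muscle. *Tcap*, of the muscle sarcomere, had 11.7, 18.4, 26.6 and 34.6 CPM against 106, 143, 154 and 136 CPM (log2 fold change -2.54 ± 0.12 (SE), adjusted p = 2.1e-17), and *Myl1*, *Apobec2*, *Cox8b*, *Ldb3*, *Actn2* and *Mybpc1* followed at -2.48 to -2.32.

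Genes followed in the study for the *Krox20* lineage were compared next. *Egr2* (*Krox20*) had 36.6, 55.9, 32.8 and 54.02 CPM in IFE spots against 30.4, 32.8, 30.1 and 37.9 CPM (log2 fold change 0.48 ± 0.11 (SE), adjusted p = 0.00037), and the groups overlapped. *Lrig1*, a marker of upper HF stem cells, was not called (0.12 ± 0.085, adjusted p = 0.26), and *Nes* was lower at 14.1 against 19.6 CPM (-0.47 ± 0.16). *tdTomato*, the lineage reporter, was counted with 8 UMIs over all IFE spots and 95 over the others, at 1.06, 1.53, 1.56 and 1.44 against 0.759, 1.27, 1.04 and 1.44 CPM (log2 fold change 0.36 ± 0.55, adjusted p = 0.6). No difference in *tdTomato* was called at this depth.

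Distance on the capture grid gave each list a profile. With 642 spots at step 0, there were 764 spots at step 1, 772 at step 2, 760 at step 3 and 3473 farther away. Spots at step 1 and beyond all fell below the score limit. The choice of spots thus favoured a drop after step 0 in genes made in the same layers as the score genes. Levels of late differentiation genes dropped at the first step, as *Lce1m* went from 1389 ± 204 CPM (SD, n = 4 slices) to 118 ± 26.1 at step 1 and 38.8 ± 7.45 at step 2, and *Alox12b* from 43.05 ± 7.04 to 4.5 ± 1.87 and 1.65 ± 0.372. *Fosb* was at 19.1% of its IFE level at step 1 and *Krt15* at 77.1%. The T cell list was at 70.02% at step 1 and 24.6% at step 2, and the Langerhans cell list at 86.9% and 53.95%. Upper HF genes, in contrast, reached 27338 ± 749.6 CPM at step 1 against 14832 ± 761 at step 0, and sebaceous gland genes 6509 ± 473 against 3530.3 ± 248. The basal layer list was highest at step 2 (13805 ± 1011 against 9191 ± 238 CPM). Proliferation genes summed to 1243 ± 46.3 CPM at step 0, 1213 ± 102 at step 3 and 2709.6 ± 116 beyond it, and muscle genes to 1964 ± 577, 1517 ± 405 and 11506 ± 1342 CPM.

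**Figure D4:**
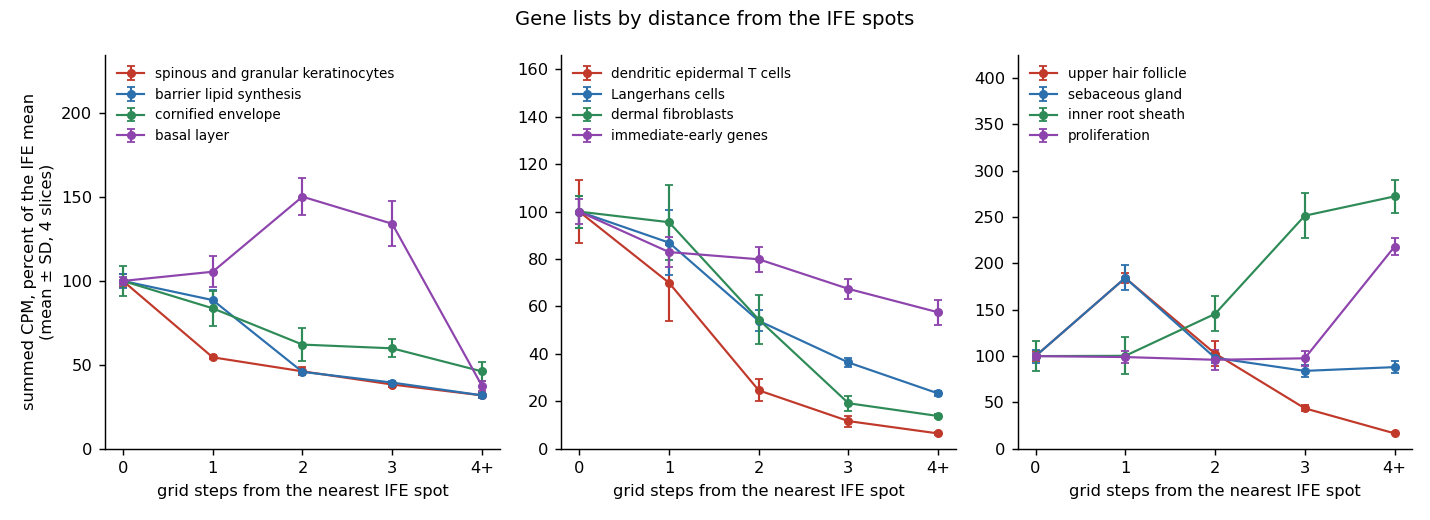
Summed CPM of 12 gene lists by grid steps from the nearest IFE spot, as a percent of the mean in IFE spots (points are means and bars SDs over 4 slices). Granular, lipid and immune lists fall with distance, upper hair follicle and sebaceous gland lists both peak at step 1 at 184%, and the inner root sheath list reaches 272% at 4 or more steps.

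The 764 adjoining spots touched an IFE spot and were themselves below the score limit. They were taken alone next, as the nearest tissue on the grid. The choice of spots thus again favoured any gene made in the same layers as the score genes. Of 10318 genes tested, 1337 (13.0%) were higher in IFE spots and 1223 (11.9%) were lower. Differentiation genes differed here too, with 20 of 21 fitted spinous and granular genes higher (median 0.97) and 20 of 28 envelope genes higher and 4 lower (median 1.6), beside a median of -0.0049 over all genes. The 6 highest by the naming rule were *Ly6m*, *Il1f9*, *Lce1f*, *Lce1m*, *Hrnr* and *Lce1a2*. *Ly6m* had 60.5, 80.4, 66.5 and 46.1 CPM against 5.92, 3.84, 5.3 and 3.88 CPM in adjoining spots (log2 fold change 3.71 ± 0.19 (SE), adjusted p = 1.3e-19). Lipid genes were higher for 19 of 25 and lower for 4, among them *Fa2h* (-1.27 ± 0.068), a fatty acid hydroxylase. *Fosb* (2.38 ± 0.21), *Wnt7b* (2.33 ± 0.14), *Cd3e* (1.77 ± 0.26) and *Cd207* (1.3 ± 0.23) were higher also over this short distance. All but *Cd207* were the highest of their lists. T cell genes were higher for 5 of 8 fitted and not called for 3, Langerhans cell genes higher for 7 of 12 and lower for 2, immediate-early genes higher for 7 of 15 and lower for 3, and growth and hair cycle signals higher for 5 of 16 and lower for 2. Another 7 T cell genes were not fitted, and the filter on low counts may favour higher values here too.

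The adjoining spots were the richer ones in gland and upper HF genes. Sebaceous gland genes were lower in IFE spots for 14 of 14 fitted (median -0.93), upper HF genes for 8 of 12, endothelial genes for 8 of 10 and smooth muscle genes for 6 of 9. Fibroblast genes were higher for 5 of 17 and lower for 2 (median 0.0070), and proliferation genes were not called for 17 of 20. Among the lowest by rule were *Cpsf4l*, *Atp12a*, *Slc5a5*, *Car6* and *Wfdc18*. *Atp12a*, a proton pump, had 203, 198, 221 and 253 CPM against 713, 723, 734 and 876 CPM (log2 fold change -1.77 ± 0.050 (SE), adjusted p = 9.2e-28), and *Car6*, a secreted carbonic anhydrase, 623, 689, 802 and 739.7 against 1903, 2229, 2381 and 2559.5 CPM (log2 fold change -1.63 ± 0.038 (SE), adjusted p = 1.4e-30). *Egr2* was lower in IFE spots here (-0.71 ± 0.12), as was *Lrig1* (-0.96 ± 0.090). DESeq2 called 668 genes higher and 503 lower, thinned spots gave 790 and 729, and 795 were lower without the slice as a block.

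The upper HF is continuous with the IFE, and its spots were the nearest epithelium to compare. They were the highest 10% of each slice by *Krt17*, *Krt79*, *Lrig1*, *Gata6*, *Plet1* and *Cst6* that were not IFE spots, 540 in all, and 102 spots that ranked in the top 10% by both scores stayed with the IFE. Genes of both scores were left out. Each set was still chosen on its own score, which favoured genes made in the same places as the genes of that score. Of 9690 genes tested, 1370 (14.1%) were higher in IFE spots and 1379 (14.2%) were lower. The highest by the naming rule, which asks for at least 50 CPM, were *Lce1d* (4.07 ± 0.17), *Lce1a2*, *Lce1m*, *Il1f9*, *Ly6m* and *Lce1b*, and below that level *Skint5* (4.83 ± 0.56) and *Il1f8* (4.3 ± 0.51) had larger fold changes. Spinous and granular genes were higher for 18 of 21 and lower for 2 (median 1.09). Basal genes went both ways, with 5 of 19 higher and 6 lower (median -0.021). *Krt15* was higher in IFE spots (0.30 ± 0.036) and *Krt14* lower, at 2857, 2846, 3309 and 2822 CPM against 3991, 4594, 5142 and 4199.9 CPM (log2 fold change -0.61 ± 0.033 (SE), adjusted p = 9.5e-18).

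The 6 lowest genes in IFE spots by the naming rule were *Cpsf4l*, *Atp12a*, *Slc5a5*, *Gdf10*, *Spink12* and *Car6*. *Atp12a* had 1214, 1106, 1113 and 1224 CPM in upper follicle spots against 203, 198, 221 and 253 CPM in IFE spots (log2 fold change -2.44 ± 0.054 (SE), adjusted p = 4.7e-30). *Slc5a5*, which codes for the iodide transporter, was at 118 against 22.8 CPM (-2.41 ± 0.12), and *Gdf10*, a ligand of the TGF-β family, at 55.4 against 10.6 CPM (-2.36 ± 0.17). Of 16 fitted ion channel and transporter genes, a list that does not hold these 6, 8 were lower in IFE spots, 3 higher and 5 not called (median -0.25). The calcium channel *Trpv6* was the lowest of the list, with 21.8, 40.6, 51.6 and 32.4 CPM against 143, 162, 189 and 147 CPM (log2 fold change -2.19 ± 0.11 (SE), adjusted p = 1.2e-18). *Egr2* was at 36.6, 55.9, 32.8 and 54.02 CPM in IFE spots against 80.4, 100.4, 85.5 and 116 CPM (log2 fold change -1.11 ± 0.11 (SE), adjusted p = 1.2e-10), without overlap. The paper reports overlap of *Krox20* with *Lrig1*, *Gata6* and *Krt79* in its single-cell data of pups. These are genes of the upper follicle score, so the choice of spots favoured this direction for *Egr2*. T cell genes were higher in IFE spots for 6 of 7 fitted and Langerhans cell genes for 6 of 10, with 2 of the latter lower, among them *Epcam* (-1.2 ± 0.056), an adhesion gene also of epithelia. Other listed T cell genes were not fitted, and the filter on low counts may again favour higher values among those that were. Fibroblast genes were higher for 9 of 17 and lower for 1, and muscle genes were higher for 12 of 14. Inner root sheath genes were higher for 8 of 12 and lower for none, hair matrix and shaft genes higher for 10 of 22 and lower for 1, and proliferation genes higher for 7 of 20 and lower for none, unlike against all other spots. The part of these tissues in this comparison was not tested. DESeq2 called 670 genes higher and 629 lower, and thinned spots gave 873 and 832.

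**Figure D5:**
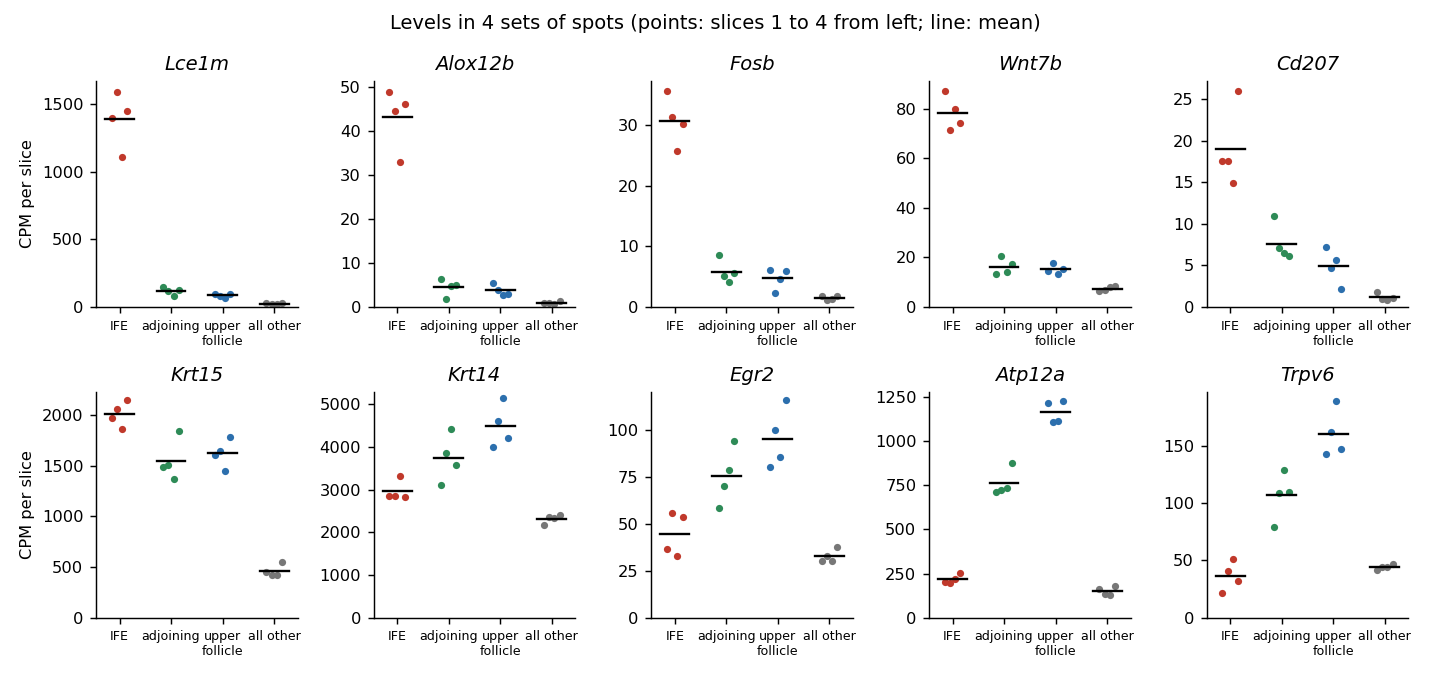
Level (CPM) of 10 genes in IFE spots, adjoining spots, upper follicle spots and all other kept spots (which include both of these sets), with a point for each of slices 1 to 4 and a line at the mean. *Lce1m*, *Alox12b*, *Fosb*, *Wnt7b* and *Cd207* are highest in IFE spots in all 4 slices, and *Krt14*, *Egr2*, *Atp12a* and *Trpv6* are highest in upper follicle spots. IFE and upper follicle spots were each chosen on a score, which favours genes made in the same places as its genes.

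Within the IFE, 7479 genes were compared between spots at the tissue edge and inner spots. Only 10 genes (0.134%) were higher at the edge and 9 (0.120%) lower by edgeR, with 488 genes of either direction at an unadjusted p under 0.05, and DESeq2 called 0 in either direction. *Lce1l* had 102, 79.5, 69.7 and 93.4 CPM at the edge against 129, 163, 105 and 215 CPM in inner spots (log2 fold change -0.80 ± 0.14 (SE), adjusted p = 0.0045), and *Fosb* 21.2, 17.7, 23.96 and 17.9 against 44.2, 46.2, 30.5 and 62.9 CPM (log2 fold change -1.19 ± 0.24 (SE), adjusted p = 0.018). *Lce1a1*, *Lce1b*, *Lce1a2*, *2310046K23Rik* and *Cst6* were lower at the edge too (-0.61 to -0.21). The muscle genes *Ttn*, *Tnni2*, *Tnnc2*, *Myl1* and *Mylpf* (0.64 to 0.81) and the collagen gene *Col3a1* (0.52 ± 0.061) were higher there. The *Lce1* differences turned around when the top 20% of spots were taken, and the counts were 35 and 22 without slice 3, 9 and 4 without slice 2, and 4 and 1 without slice 1 or slice 4. Without the slice as a block they were 0 and 1. Inner spots lay mostly in the central band. Within the central band alone, which held spots of both kinds in every slice, 2 genes were higher and 1 lower.

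The central and outer bands, compared after the maps had been seen, may come from different sections and mice, which the files do not label. Of 7773 genes, 58 (0.746%) were higher in the central band and 76 (0.978%) lower. *Pyy*, which codes for the gut hormone peptide YY, stood out with 50.9, 35.2, 68.3 and 49.6 CPM in the central band against 2.92, 0, 2.05 and 0 CPM in the outer band (log2 fold change 4.88 ± 0.43 (SE), adjusted p = 4.2e-10). *Serpina3j* (1.64 ± 0.17) and *Serpina3b* (1.53 ± 0.15), protease inhibitors of one gene cluster, *Cyp2g1* (1.4 ± 0.17), *Xist* (1.02 ± 0.20) and *Mgll* (1.01 ± 0.12) were the others highest by the naming rule, and *Lce1h*, below its limit of 50 CPM, was at 1.9 ± 0.31. *1110057P08Rik* (-2.19 ± 0.29), *Gpx3*, *Krtap6-3*, *Myh4*, *Hp* and *Mfap2* were the lowest by the rule. Envelope genes were higher in the central band for 9 of 28 and lower for none, and *Fosb* was higher (1.25 ± 0.28). Upper HF genes were higher there for 5 of 11 and sebaceous gland genes for 4 of 13, with none lower. Their sums were 15394, 15923, 17449 and 15937 CPM against 12127, 10977, 13489 and 10259 CPM for upper HF genes, led by *Cst6*, and 3375, 3949, 4291 and 3700.2 against 2968, 3009, 2892 and 2603 CPM for gland genes, led by *Scd1*. Fibroblast genes were lower for 7 of 16 and muscle genes for 9 of 14. The part of these tissues in the difference between bands was not tested. The counts were 36 and 36 without slice 3, 38 and 50 without slice 2, 91 and 127 without slice 4, and 20 and 14 without the slice as a block. *Xist* is made in female cells, and Y-linked genes were also measured in both bands, at 71.8, 56.9, 77.1 and 87.8 CPM in the central and 78.8, 64.9, 71.8 and 94.1 CPM in the outer band. Band, section, sex and mouse cannot be told apart. Whether the difference between IFE and other spots itself changed between the outer and the central part of the slice was tested with an interaction term, which called 1 of 12181 genes (0.00821%), *Xist*.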

How the data were processed

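Spatial transcriptomes of dorsal skin were measured on 4 Visium slices, which all carried skin of the same 3 mice. The authors deposited UMI counts per gene and spot, whole and not normalized, made with Space Ranger 2.0.1 (matrix header) on mm10 per the labels, for spots over tissue alone (32286 features). Slice totals are given in the report. Further parameters are not given in the sources used here. *CreERT* was not analysed here, nor were 3 listed symbols, and single results of some named genes are not reported here.

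Counts were summed per slice and spot set and tested with edgeR 4.0.16 under R 4.3.3 (TMM, filterByExpr, quasi-likelihood test, slice as a block, Benjamini-Hochberg over all genes fitted). Same-slice sums deviated together (correlations of 0.216, 0.109, 0.114 and 0.114 over 13727 genes) and come from the same sections, so the slice numbers pair them. DESeq2 1.42.0 was an alternative, beside other normalizations, filters, spot choices, depths, strips of the slice and each slice left out. No doublet caller was run. Positions were tested with an exact sign-flip test over slices.

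The members and gene lists were chosen with earlier results of these data known. Named genes are the 12 highest and 8 lowest by fold change against all other spots, and the 6 and 6 of each other comparison, among called genes with at least 50 CPM in the higher set and 1 direction in all 4 slices. The most abundant, highest and lowest member of each list and the genes the study follows were added. Other genes of the lists, and *Fosb* at the edge, were named after their values were seen. Where a symbol had several features (*Ccl27a*), the one with the highest mean level in the first-named set of spots was used. Promoters and names come from RefSeq (GRCm38.p6), the same assembly as mm10. *Lce1f* is not among the promoters.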

Additional observations from a re-analysis of the deposited data

Results flagged for a closer look

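Within groups of 4 slices, 1 value stood far from the other three for 7 genes, of 169 sets of values examined, and chance alone gives about 1 in 20. Slice 3 was the distant one for 5 of the 7. *Lce1l* was at 119, 119, 79.8 and 127 CPM in the IFE spots of slices 1 to 4 and *Dsg1a* at 703, 699.7, 602 and 712, both lowest in slice 3. *Cst6* at 9675, 9645, 10701 and 9643, *Krt14* at 2857, 2846, 3309 and 2822 and *Dsp* at 2128, 2132, 2263 and 2136 CPM were highest there. *Cnn1* at 18.05, 34.5, 19.6 and 20.2 and *Pparg* at 5.84, 8.42, 5.47 and 5.76 CPM were highest in slice 2.

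The IFE against other difference in *Xist*, the transcript of the inactive X chromosome, differed between the outer and the central part of the slice (central minus outer log2 difference -1.48 ± 0.25 (SE), edgeR adjusted p = 0.016). In the outer part, *Xist* was at 36.5, 32.4, 34.9 and 26.5 CPM in IFE spots and at 7.33, 7.8, 10.7 and 14.8 CPM in the other spots. In the central part it was at 55.9, 73.4, 74.6 and 75.4 and 44.2, 53.3, 54.2 and 74.2 CPM. The outer-band values rest on 25, 11, 17 and 9 *Xist* UMIs. *Uty*, *Kdm5d*, *Ddx3y* and *Eif2s3y*, all on the Y chromosome, summed to 78.8, 64.9, 71.8 and 94.1 CPM in outer IFE spots, 91.5, 91.99, 99.96 and 97.97 in the other outer spots, 71.8, 56.9, 77.1 and 87.8 in central IFE spots and 71.8, 64.2, 66.7 and 57.8 CPM in the other central spots, so both parts held transcripts of male and of female tissue.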

How the results depend on the processing

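Against all other spots, counts stayed within 1.5 times of 3657 higher and 3459 lower except for 3 strips across the slice, each taken alone (2285, 1996 and 2239 higher, 2109, 1632 and 1953 lower), the outer part of the slice alone, added after seeing the data (2063 and 1891), and thinned spots (2250 lower); these hold fewer spots or UMIs. Past a log2 fold change of 1, strip 2 gave 960 and 624. Leaving out 1 slice gave 3234 to 3396 higher and 2976 to 3146 lower. Of 7116 called genes, 5682 were also called by DESeq2, and 26 of those called with the top 20% of spots had the opposite direction. Without low-count filter the median over all genes was -0.23.

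Against adjoining spots, DESeq2 gave 668 and 503, thinned spots 790 and 729, and the fit with no replicate block 795 lower. Against upper follicle spots, DESeq2 gave 670 and 629 and thinned spots 873 and 832. For edge against inner spots, higher and lower counts were 18 and 14 with no low-count filter, 0 and 1 with no replicate block, 220 and 235 with the top 20%, 0 and 0 by DESeq2, 2 and 1 in the central band alone, 2 lower in thinned spots, and 4 to 35 and 1 to 22 with 1 slice left out. The bands gave 20 and 14 with no replicate block and 36 to 91 and 36 to 127 with 1 slice left out.

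The edge share difference was 37.3 points and 21.7 with the top 20%. The neighbour share difference of 50.6 points became 33.5, 66.2 and 55.9 with the top 5%, the top 20% and thinned spots. The log2 ratio of genes per spot turned from -0.31 to 0.050 in thinned spots.

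Signs that turned around, as log2 fold changes against all other spots, were those of *Krt14* (-0.018 in strip 2), *Sprr1a* (-0.0074 by library size, -0.030 with no low-count filter, from -0.051 to 0.068 with 1 slice left out, below 0 without slice 3, -0.29 with the top 5%, -0.12 and -0.060 in strips 1 and 2, -0.16 in the outer part), *Pnpla1* (0.025, top 5%), *Lrig1* (-0.035 thinned, -0.10 top 5%, -0.23 strip 2), *Pparg* (-0.0023 strip 1, -0.12 outer part), *Pmp22* (-0.089 top 5%, -0.095 strip 3), *Tpsb2* (from -0.19 to 0.13 with 1 slice left out, above 0 without slice 3, 1.1 strip 3, 0.13 central part), *Egr3* (0.031 strip 3) and *tdTomato* (-0.077 top 5%). With the top 20%, edge against inner turned for *Lce1b* (0.45), *Lce1a1* (0.37), *Lce1l* (0.28), *Lce1a2* (0.46) and *2310046K23Rik* (0.082). The cause was not tested. Of the other values of named genes against all other spots, 2055 kept their direction and side of the threshold, 47 lost the call and 19 gained one. Of those for edge against inner spots, 72 lost the call. With no replicate block all 12 genes named for edge against inner lost it, as did *Gpx3*, *Myh4* and *Hp* between bands, *Pparg* gained one, and no other named gene changed. Edge against inner could not be fitted in the outer band, where slice 2 had 0 inner spots. A thinned median of UMIs per spot has no meaning and was not computed.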
